A study of Mus musculus with 22 samples.

Results

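LPS-treated bone marrow-derived macrophages (BMDM) lacking the protein kinase MK2 (MK2-/-) were compared directly with LPS-treated wild-type (wt) BMDM across all genes on the array. The groups were taken from the array titles: 4 arrays of MK2-/- BMDM and 3 arrays of wt BMDM, 7 of the 22 arrays of the series. Bone marrow came from C57BL/6 mice labelled as male, aged 10, 11, 12 and 13 weeks for the MK2-/- arrays and 12, 13 and 12 weeks for the wt arrays, and was differentiated with M-CSF. The cells of both groups received 100 ng/ml LPS for 360 min, and cells kept in medium alone for the same time (4 arrays per genotype) served as the background. The medium arrays came from mice aged 12, 13, 13 and 12 weeks (wt) and 10, 11, 12 and 13 weeks (MK2-/-). BMDM lacking both MK2 and the related kinase MK3 (MK2/3-/-) made up the rest of the series. They gave 4 arrays with the same LPS treatment and 3 in medium. The mice were aged 11, 12, 14 and 12 weeks for the former and 11, 12 and 12 weeks for the latter. The knockout mice lacked MK2 from the germ line, so the kinase was missing during differentiation as well as during LPS treatment.

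MK2 is activated by the stress kinase p38 downstream of the LPS receptor TLR4. It phosphorylates RNA-binding proteins, above all tristetraprolin (encoded by Zfp36), and thereby stabilises short-lived cytokine transcripts and promotes their translation. In macrophages the kinase is best known for its part in the production of TNF, IL-6, IL-10 and type I interferon. An array of total RNA reads the amount of transcript, not its translation, and in a bulk culture fewer cells of a type and less RNA per cell cannot be told apart.

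All arrays of a genotype were hybridised on 1 slide of their own, so genotype and slide cannot be told apart in the direct comparison. A shift that a slide adds equally to both treatments cancels in the difference of the LPS responses, which was therefore tested as well. The median processed signal was 32.7 to 79.4 on the wt LPS arrays and 54.6 to 108 on the MK2-/- LPS arrays, and 61.7% to 76.4% and 64.1% to 83.0% of spots, respectively, lay well above background. MK2-/- LPS replicate 3 was the brightest of the series and had 2927 spots marked as non-uniform or outlying, against at most 261 on any other array. In the same array the Y-linked transcript Ddx3y was at 1.99 on the log2 scale, with 10.89, 11.26 and 11.09 in the other MK2-/- LPS arrays, and Xist was at 7.66. MK2-/- medium replicate 3 showed the same (Ddx3y 2.01), which goes against the male label of these 2 arrays. Without both of them 2278 genes were called under LPS (947 higher and 1331 lower), against 2592 with them. Within the groups the arrays correlated at 0.953 to 0.985 across genes, and no pair held identical signals.

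Macrophage markers were present throughout. All 11 measured members of the macrophage list were well above background on every array, and the mean log2 signal of the list was 13.59 to 14.08 on the wt LPS arrays and 13.80 to 14.10 on the MK2-/- LPS arrays. Fibroblast and stromal markers (10 genes measured, among them the collagens Col1a1 and Col1a2) were detected too, and unequally. Their mean log2 signal was 10.51, 9.79 and 10.09 on the 3 wt LPS arrays and 8.27, 7.64, 8.95 and 9.86 on the 4 MK2-/- LPS arrays. Only MK2-/- replicate 4 reached the wt range, and Col1a1 averaged 12.55 in wt and 9.12 in MK2-/- BMDM, a difference that did not pass the test (adjusted p = 0.268). The members did not all go the same way. Of the 10 differences 7 lay below 0 and 3 above, among the latter Lum (0.72) and Pdgfrb (0.83), and none was called. With the mean of the 10 stromal markers entered as a covariate, 1207 genes were called under LPS (381 higher and 826 lower). Other lists differed as well. The B cell markers (8 genes) averaged 5.92, 5.13 and 5.31 on the wt LPS arrays and 4.57, 4.49, 4.51 and 5.05 on the MK2-/- LPS arrays, and the mast cell and basophil markers (8 genes) 6.27, 5.74 and 5.66 and 5.20, 5.22, 5.13 and 5.59. The erythroid markers (4 genes) averaged 6.07, 6.32 and 5.90 in wt and 6.84, 6.87, 7.36 and 6.77 in MK2-/- BMDM. The arrays of the groups did not overlap for these 3 means, and their part in the results was not tested. The mast cell and basophil difference did not keep its sign under other processing. Its list median under LPS was -0.24 as processed here, -0.07 with normexp background correction and 0.08 when arrays were scaled to their 75th percentile. In the last case 2 members were called higher and 0 lower. The B cell medians were -0.90, -0.26 and -0.21 in that order, and the erythroid medians 0.49, 0.34 and 0.99. For each gene named from here on whose call under LPS was lost with the stromal covariate, the adjusted p of that fit is given.

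**Figure D1:**
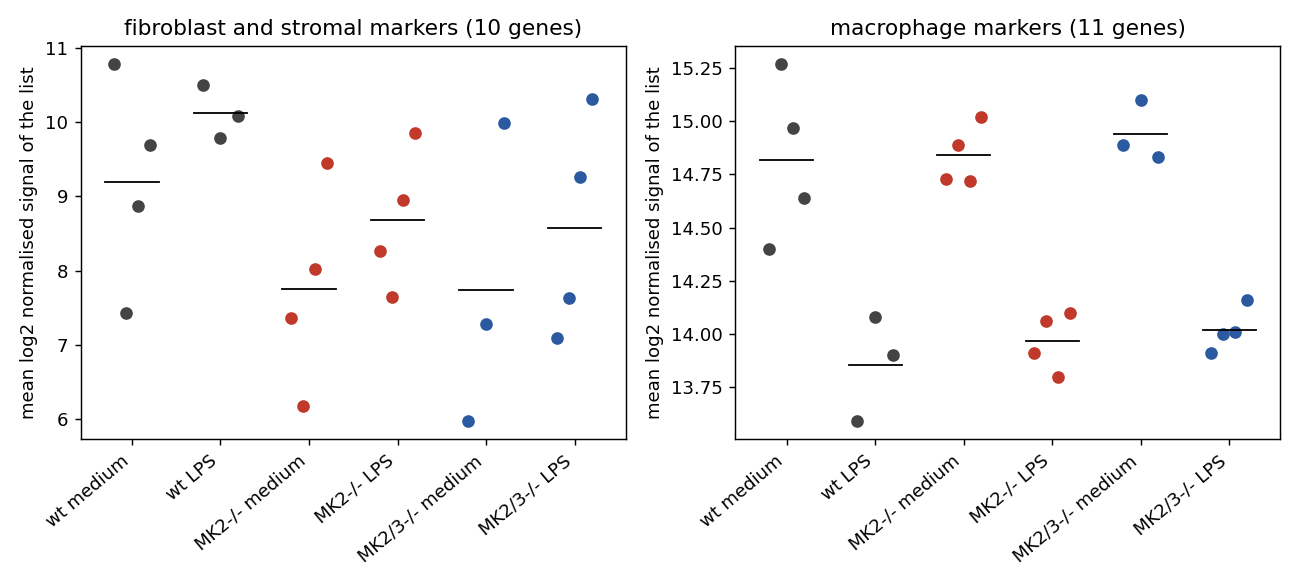
Mean log2 normalised signal of the fibroblast and stromal markers (left, 10 genes) and of the macrophage markers (right, 11 genes) on each array, by group, with the group mean as a line. The wt LPS arrays lie between 9.79 and 10.51 for the stromal list and 3 of the 4 MK2-/- LPS arrays lie below them, whereas the macrophage lists overlap.

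Of 22384 genes tested, 2592 (11.6%) differed between LPS-treated MK2-/- and wt BMDM at an adjusted p below 0.05 (limma, Benjamini-Hochberg over all genes). Transcript expression was higher in MK2-/- BMDM for 1012 genes (4.52%) and lower for 1580 (7.06%). The difference reached at least 4-fold for 138 of the higher and 281 of the lower genes. The median difference over all genes was -0.03 on the log2 scale. The direction of the balance depended on the scaling: with each array scaled to its 75th percentile, 4753 genes were called and 3028 of them were higher, that is 63.7% against 39.0% under quantile normalisation. None of the genes called under quantile normalisation changed sign under that scaling, and 1855 of them were called again. Values of the 4 MK2-/- and the 3 wt LPS arrays did not overlap for 6220 genes (27.8%). Of the 2592 called genes 2380 were among them, so groups that do not overlap add little to a call. Of the genes named in the text, 20 calls were lost with 75th percentile scaling and 37 with the 7 LPS arrays normalised and fitted alone. For 1676 of the called genes the probe was well above background on all 7 arrays.

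Mapkapk2, which encodes MK2 (NM_008551), gave log2 signals of 15.07, 14.28 and 15.33 on the wt LPS arrays and 11.71, 11.52, 11.25 and 11.95 on the MK2-/- LPS arrays. The groups were far apart, at 14.89 ± 0.55 (SD, n = 3) and 11.61 ± 0.30 (SD, n = 4). The difference was -3.28 ± 0.31 (SE, adjusted p = 2.69e-05), a 9.74-fold lower signal that nevertheless stayed well above background on all 4 MK2-/- arrays. In medium it was -3.02 (adjusted p = 3.88e-05). Whether the probe lies inside the deleted part of the gene was not determined. Mapkapk3, which encodes MK3 (NM_178907), was at 11.94, 12.18 and 12.23 in wt and 12.47, 12.58, 11.92 and 12.44 in MK2-/- BMDM. These values overlapped, and the difference of 0.23 ± 0.24 (SE, adjusted p = 0.548) did not pass the test. In LPS-treated MK2/3-/- BMDM the means were 11.02 for Mapkapk2 and 8.0 for Mapkapk3.

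**Figure D2:**
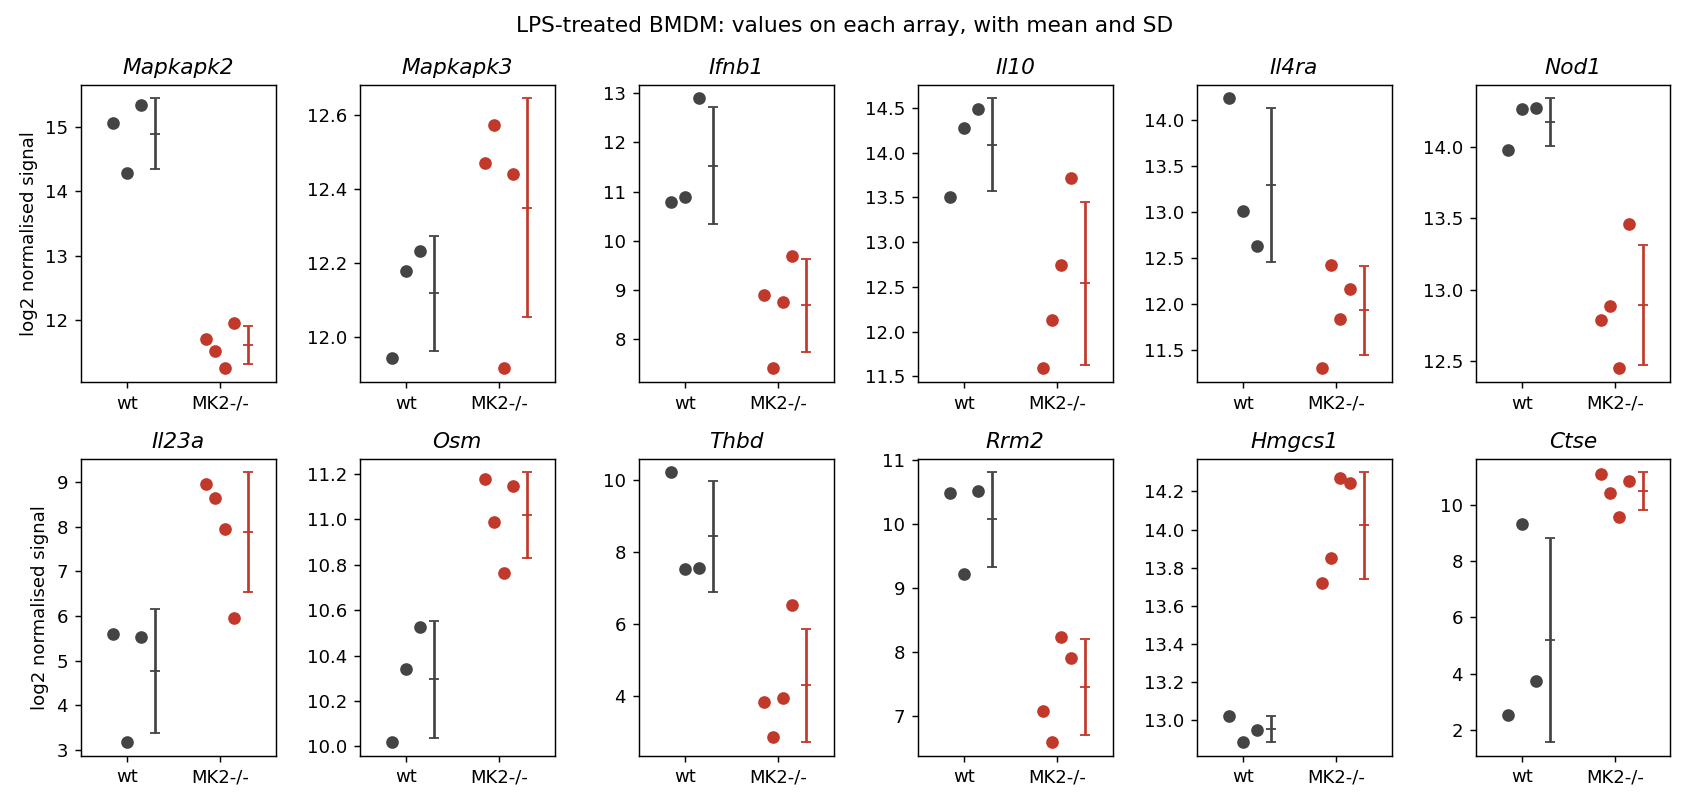
Log2 normalised signal of 12 genes on each of the 3 wt (grey) and 4 MK2-/- (red) LPS arrays, with the mean and SD beside the points. Mapkapk2, Ifnb1, Il4ra, Nod1, Thbd and Rrm2 lie lower on every MK2-/- array than on any wt array, Il23a, Osm, Hmgcs1 and Ctse lie higher, and Il10 and Mapkapk3 overlap.

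Interferon beta transcripts were lower in MK2-/- BMDM. Ifnb1 (NM_010510), the type I interferon that macrophages release after TLR4 activation, reached 10.79, 10.89 and 12.89 on the wt LPS arrays and 8.90, 7.41, 8.76 and 9.68 on the MK2-/- LPS arrays. Every MK2-/- value lay below every wt value, and the difference was -2.84 ± 0.74 (SE, adjusted p = 0.0217), or 7.14-fold. In medium the genotypes were at 3.75 and 3.95, so the response to LPS differed by -3.04 log2 units in MK2-/- BMDM, which did not pass the adjustment (unadjusted p = 0.00736, adjusted p = 0.457). The mean of LPS-treated MK2/3-/- BMDM was 9.75. The call was lost without wt replicate 3, the highest array, or without MK2-/- replicate 2, the lowest.

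Il10 and Il4ra transcripts were lower in MK2-/- BMDM. Il10 (NM_010548), the cytokine that limits macrophage activation, was at 13.51, 14.28 and 14.49 in wt and 11.59, 12.12, 12.74 and 13.71 in MK2-/- BMDM. MK2-/- replicate 4 exceeded wt replicate 1, and the difference of -1.55 ± 0.48 (SE, adjusted p = 0.0424) was close to the threshold: it was lost without wt replicate 2 or 3 or without MK2-/- replicate 1, 2 or 3, and with the stromal covariate (adjusted p = 0.122). Medium-treated cells differed by -1.03 (adjusted p = 0.148). Il4ra (NM_001008700), the IL-4 receptor chain that opens the alternative activation programme, was at 14.24, 13.01 and 12.63 in wt and 11.30, 12.42, 11.83 and 12.17 in MK2-/- BMDM. The groups did not overlap and differed by -1.36 ± 0.32 (SE, adjusted p = 0.0132), a call lost without wt replicate 1, and a second Il4ra probe gave -0.51 without passing the test. In medium its difference was -0.16 (adjusted p = 0.771). Among the 22 measured anti-inflammatory cytokines and feedback inhibitors these were the 2 that passed, both lower (9.09%, beside 11.6% of all genes), and neither passed with the 7 LPS arrays normalised and fitted alone. The list median was 0.01. MK2/3-/- BMDM stood at 11.77 for Il10 and 10.36 for Il4ra.

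For Tnf, Il6 and Il1b, the main inflammatory cytokines, no difference passed the test under LPS. Tnf was at 15.47, 16.36 and 17.57 in wt and 16.18, 15.54, 16.45 and 16.60 in MK2-/- BMDM, and the difference was -0.27 ± 0.47 (SE, adjusted p = 0.736). For Il6 the values were 17.74, 17.52 and 17.81 and 18.02, 17.83, 17.87 and 17.60, and for Il1b 18.19, 18.03 and 17.88 and 18.27, 18.14, 18.31 and 17.80. Both sets overlapped, with differences of 0.14 ± 0.94 (SE, adjusted p = 0.94) and 0.09 ± 0.75 (SE, adjusted p = 0.95). No spot on any array was marked as saturated. The SE of these 2 genes is taken over all 6 groups of the series and is wider than the spread of their LPS arrays.

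Of the 20 measured LPS-induced inflammatory cytokines, 2 were called higher and 1 lower (15.0%, beside 11.6% of all genes), and none was with the 7 LPS arrays normalised and fitted alone. Il23a (NM_031252), the p19 subunit of IL-23, was at 5.61, 3.18 and 5.52 in wt and 8.96, 8.63, 7.93 and 5.96 in MK2-/- BMDM. The lowest MK2-/- value exceeded the highest wt value, and the difference was 3.10 ± 0.86 (SE, adjusted p = 0.0275), or 8.6-fold. It was well above background on 2 of the 3 wt and on all 4 MK2-/- arrays. In medium the genotypes were at 2.76 and 3.23. The call was lost without wt replicate 2, MK2-/- replicate 1 or MK2-/- replicate 2, and with the stromal covariate (adjusted p = 0.0777). Osm (NM_001013365), the IL-6 family cytokine oncostatin M, rose from 10.02, 10.34 and 10.53 to 11.18, 10.99, 10.76 and 11.15. That is 0.72 ± 0.22 (SE, adjusted p = 0.0398), a call that only the fit without MK2-/- replicate 3 kept among the 7 fits leaving out 1 array, and that the stromal covariate and 75th percentile scaling removed (adjusted p = 0.113 and 0.0991). Il2, the T cell growth factor, was dim, at 6.13 ± 1.03 (SD, n = 3) in wt and 4.44 ± 0.79 (SD, n = 4) in MK2-/- BMDM, and lower, with a difference of -1.69 (adjusted p = 0.0218, 0.0593 with the stromal covariate and 0.126 with 75th percentile scaling). It was well above background on 2 wt arrays and 1 MK2-/- array. The groups overlapped, and the call was lost without wt replicate 1 or 3 or MK2-/- replicate 2 or 4. In medium Il2 differed by -1.84 (adjusted p = 0.0118), so it was lower without LPS too. LPS changed it by -0.31 in wt BMDM (adjusted p = 0.613), so no induction was seen there. The list median was 0.12.

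None of the 12 measured CC chemokines and none of the 11 measured CXC chemokines passed the test under LPS. Cxcl1, a neutrophil attractant, was at 14.29, 13.80 and 14.17 in wt and 15.46, 14.32, 14.88 and 13.74 in MK2-/- BMDM (0.52 ± 0.52 SE, adjusted p = 0.536). Its relatives Cxcl2 and Cxcl3 gave -0.03 ± 0.44 (SE, adjusted p = 0.969) and 1.42 ± 0.76 (SE, adjusted p = 0.217), and the interferon-linked Cxcl10 gave -0.11 ± 0.66 (SE, adjusted p = 0.931). In medium the picture was another one: 3 CXC and 3 CC chemokines were lower in MK2-/- BMDM (3.11% of all genes were), with list medians of -1.65 and -0.42. Cxcl1 differed there by -1.82 (adjusted p = 0.0266), Cxcl2 by -1.65 (adjusted p = 0.0199) and Il6 by -3.90 (adjusted p = 0.0123). The responses to LPS accordingly differed by 2.34 for Cxcl1, 1.61 for Cxcl2 and 4.04 for Il6, and none of the 3 passed the adjustment (adjusted p = 0.406, 0.534 and 0.435). How the medium calls of these genes fared in the alternative fits is not given here. Over all genes the medium calls went from 1974 to 769 with the stromal covariate.

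The promoters of Ifnb1 and of Cxcl2 are shown because both genes are classical NF-kB targets induced by LPS, while Ifnb1 was lower and Cxcl2 was not called. The 250 bases before the annotated start are given on the gene's strand (RefSeq, GRCm38.p6), and capitals mark the letters GGAAATTCC (an NF-kB type motif) and AANNGAAA (an interferon regulatory factor type motif) on either strand. The Ifnb1 sequence lies at chr4:88522795-88523044 (minus strand) and the Cxcl2 sequence at chr5:90903649-90903898 (plus strand).
Ifnb1: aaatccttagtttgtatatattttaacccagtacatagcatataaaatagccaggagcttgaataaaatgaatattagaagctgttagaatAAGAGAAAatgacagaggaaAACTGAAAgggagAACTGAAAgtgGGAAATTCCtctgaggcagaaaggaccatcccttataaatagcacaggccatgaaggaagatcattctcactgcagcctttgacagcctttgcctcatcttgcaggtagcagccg
Cxcl2: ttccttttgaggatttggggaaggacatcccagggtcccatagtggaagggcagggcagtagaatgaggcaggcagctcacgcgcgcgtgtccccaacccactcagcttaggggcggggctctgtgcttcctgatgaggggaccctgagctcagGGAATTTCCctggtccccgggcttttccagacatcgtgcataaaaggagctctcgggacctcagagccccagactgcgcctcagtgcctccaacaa
Ifnb1 held 1 match to the NF-kB letters and 3 to the interferon regulatory factor letters, and Cxcl2 held 1 and 0. The first motif was found in 0.292% of the 27025 promoters searched and in 4 of the 9 CXC chemokine promoters in the table (Cxcl1, Cxcl2, Cxcl3 and Cxcl10), and the second in 21.6% of all promoters and in 20 of the 32 of the type I interferon list. The first motif was in 0 of the 14 promoters of the LPS-induced inflammatory cytokines and in 1 of the 32 of the type I interferon list (Ifnb1). The second was in 2 of the 9 CXC chemokine promoters. The matches describe letters, not bound sites.

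Downstream of type I interferon little passed the test. Of the 42 measured type I interferons and antiviral interferon-stimulated genes, 3 were called (7.14%, beside 11.6% of all genes), all of them interferon genes: Ifnb1, Ifna2 and Ifna4. Ifna2 was at 7.97, 7.16 and 7.60 in wt and 6.43, 6.38, 6.13 and 6.77 in MK2-/- BMDM (-1.15 ± 0.24 SE, adjusted p = 0.00683), whereas a second Ifna2 probe gave 0.52 and was not called. With 75th percentile scaling the difference of Ifna2 was -0.73 (adjusted p = 0.0507). Ifna4 was higher, at 4.35, 2.03 and 3.42 and 5.54, 5.59, 4.24 and 5.37 (1.92 ± 0.46 SE, adjusted p = 0.015), with overlapping groups. It was well above background on 1 wt array and was lost without wt replicate 2 and with the 7 LPS arrays alone. The alpha interferons are closely similar in sequence, so their probes may read more than 1 member. No interferon-stimulated gene of the list and none of the 16 measured interferon-inducible GTPases was called. The medians of these 2 lists were -0.04 and -0.01, beside -0.03 for all genes.

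Of 25 receptors and adaptors of LPS sensing 2 were higher and 1 was lower, a share (12.0%) near that of all genes (11.6%). Nod1 (NM_172729), a cytosolic sensor of bacterial peptidoglycan, was at 13.98, 14.26 and 14.27 in wt and 12.79, 12.88, 12.45 and 13.46 in MK2-/- BMDM. The groups did not overlap and differed by -1.27 ± 0.23 (SE, adjusted p = 0.00397). The call was kept in all 7 fits that left out 1 array, and medium gave -0.98 (adjusted p = 0.0116). Ly96, which encodes the TLR4 partner MD-2, was higher by 1.12 ± 0.31 (SE, adjusted p = 0.0272) and Ticam1, the adaptor TRIF, by 0.67 ± 0.19 (SE, adjusted p = 0.0323). These 2 calls were lost without wt replicate 1, wt replicate 2, MK2-/- replicate 1 or MK2-/- replicate 2 (Ly96 also without wt replicate 3) and with the stromal covariate (adjusted p = 0.078 and 0.0923). With 75th percentile scaling Ticam1 did not pass (adjusted p = 0.0699), and with the 7 LPS arrays alone neither did. None of the 22 NF-kB subunits, IkB proteins and IkB kinases passed. Nfkbib, which encodes IkB beta, was at 14.69, 14.92 and 15.06 and 15.19, 15.12, 15.20 and 15.36, apart by 0.33 ± 0.21 (SE, adjusted p = 0.301).

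In the p38 module, Mapkapk2 and Tab1 were the 2 of 29 members called, both lower (6.90%, near the 7.06% of all genes). Tab1, a binding partner of the kinase TAK1 and of p38, differed by -0.78 ± 0.23 (SE, adjusted p = 0.0367), a call lost without wt replicate 1 or MK2-/- replicate 1, 2 or 4 and with the stromal covariate (adjusted p = 0.0925). Of 24 regulators of mRNA stability 3 were lower (12.5%, beside 7.06% of all genes): Zfp36l1, a relative of tristetraprolin, with a log2 difference of -0.95 (adjusted p = 0.0422), Tia1 with -1.05 (adjusted p = 0.0444) and the exosome subunit Exosc1 with -1.05 (adjusted p = 0.0147). Without wt replicate 1 none of the 3 was called (Zfp36l1 and Tia1 were lost also without wt replicate 2 or MK2-/- replicate 1 or 4, Zfp36l1 without MK2-/- replicate 2, and Tia1 without wt replicate 3 or MK2-/- replicate 3), and with the stromal covariate Exosc1 alone was (adjusted p = 0.0441, against 0.106 for Zfp36l1 and 0.119 for Tia1). A second Tia1 probe gave -0.82 and was not called, and with 75th percentile scaling Tia1 did not pass (adjusted p = 0.16). With the 7 LPS arrays alone Exosc1 was the 1 regulator called. The transcript of tristetraprolin itself, Zfp36, was at 12.15, 12.72 and 12.90 in wt and 11.74, 12.09, 11.60 and 12.24 in MK2-/- BMDM, a difference of -0.68 ± 0.35 (SE, adjusted p = 0.207). Hspb1, the small heat shock protein that MK2 phosphorylates, was at 14.23, 10.49 and 11.38 and 8.57, 7.46, 9.34 and 10.83. It varied widely in both groups and gave -2.98 ± 1.52 (SE, adjusted p = 0.198). With the stromal covariate its difference was -0.83 (adjusted p = 0.414).

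Of the 24 SRF-linked immediate-early and AP-1 genes 4 were called, all higher in MK2-/- BMDM (16.7%, beside 4.52% of all genes). With the 7 LPS arrays normalised and fitted alone none was called. Ier5 was at 9.97, 10.48 and 11.24 in wt and 12.09, 11.88, 11.32 and 11.90 in MK2-/- BMDM (1.23 ± 0.25 SE, adjusted p = 0.00622), and Jund, an AP-1 subunit, at 12.87, 12.97 and 12.96 and 14.00, 13.87, 13.22 and 14.01 (0.84 ± 0.21 SE, adjusted p = 0.0173). The groups did not overlap for either gene. The nuclear receptor Nr4a2 differed by 1.69 (adjusted p = 0.0388) and the antiproliferative gene Btg2 by 0.66 (adjusted p = 0.047). Second probes of Nr4a2 and Ier5 gave 0.86 and 0.72 without passing. In medium none of the 4 was called, with differences from -0.26 for Nr4a2 to 0.46 for Btg2. Without wt replicate 1, Ier5 alone stayed called. Nr4a2 and Btg2 were lost also without wt replicate 3 or MK2-/- replicate 1 or 2 (Btg2 without MK2-/- replicate 4 too) and with the stromal covariate (adjusted p = 0.112 and 0.125), and Btg2 also with 75th percentile scaling (adjusted p = 0.123). The list median was 0.11. Of 20 integrated stress response and NRF2 targets Ppp1r15a, the stress-induced phosphatase subunit GADD34, was called (0.79 ± 0.23 SE, adjusted p = 0.036). It was lost without wt replicate 1 or 3 or MK2-/- replicate 1 or 2, with the stromal covariate (adjusted p = 0.102) and with 75th percentile scaling (adjusted p = 0.0649).

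Of the 25 members of the cholesterol synthesis and LXR target list, 4 were called higher in MK2-/- BMDM and 1 lower (20%, beside 11.6% of all genes), and the median was 0.14. The count of higher members was 1 without wt replicate 1, 0 without wt replicate 2 and 1 without wt replicate 3. Hmgcs1 (NM_145942), which makes HMG-CoA, was at 13.02, 12.89 and 12.95 in wt and 13.72, 13.85, 14.27 and 14.25 in MK2-/- BMDM. The groups were clearly apart, by 1.07 ± 0.30 (SE, adjusted p = 0.0287). Stard4, a carrier of cholesterol inside the cell, was at 8.25, 7.81 and 8.08 and 9.57, 10.59, 10.48 and 10.39 (2.21 ± 0.55 SE, adjusted p = 0.0176), while a second Stard4 probe gave 1.14 without passing. Mylip, the LXR-induced ligase that degrades the LDL receptor, was higher by 1.09 (adjusted p = 0.0343, and 0.0925 with the stromal covariate), and the desaturase gene Scd2 lower, with a log2 difference of -2.49 (adjusted p = 0.0475, 0.12 with the stromal covariate and 0.0691 with 75th percentile scaling). Stard4 was lost without wt replicate 2. Hmgcs1 and Mylip were lost without any 1 of the wt arrays or MK2-/- replicate 4, Mylip also without MK2-/- replicate 1 or 2, and Hmgcs1 without MK2-/- replicate 3. Scd2, whose groups overlapped, was lost without wt replicate 1 or 3 or MK2-/- replicate 1, 2 or 3. The mean of MK2/3-/- BMDM under LPS was 13.22 for Hmgcs1 and 8.21 for Stard4, nearer to wt.

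Of 30 DNA replication genes 7 were called lower in MK2-/- BMDM (23.3%, beside 7.06% of all genes) and none higher, with 27 of the 30 differences below 0 and a median of -1.06, beside -0.03 for all genes. Of 26 mitosis genes 2 were called lower (7.69%, near the 7.06% of all genes), with 25 of 26 differences below 0 and a median of -1.11. No mitosis gene was called with 75th percentile scaling or with normexp background correction. Rrm2 (NM_009104), the regulated subunit of ribonucleotide reductase, was at 10.49, 9.22 and 10.52 in wt and 7.08, 6.60, 8.24 and 7.91 in MK2-/- BMDM. The highest MK2-/- value lay below the lowest wt value, and the difference was -2.62 ± 0.74 (SE, adjusted p = 0.0303). Mcm2, a subunit of the replicative helicase, was at 8.82, 8.99 and 9.48 and 6.2, 5.07, 7.30 and 6.52 (-2.82 ± 0.86 SE, adjusted p = 0.0413), and the licensing factor Cdc6 was at 5.35 ± 0.80 (SD, n = 3) and 2.74 ± 0.82 (SD, n = 4) (-2.61 ± 0.62 SE, adjusted p = 0.0144). Cdc6 was well above background on 2 wt arrays and 1 MK2-/- array, and with 75th percentile scaling its difference was -1.62 (adjusted p = 0.0558). Of 2 Cdc6 probes the second gave -0.56 and was not called. Among mitotic kinases, Bub1b was at 6.66, 6.04 and 6.72 and 4.32, 3.73, 4.39 and 5.08 (-2.10 ± 0.55 SE, adjusted p = 0.0217) and Ttk differed by -1.85 (adjusted p = 0.0327). Bub1b was well above background on 3 wt and 2 MK2-/- arrays and Ttk on 2 and 1. With 75th percentile scaling the differences were -1.49 (adjusted p = 0.0537) for Bub1b and -0.80 (adjusted p = 0.275) for Ttk, and with normexp Cdc6, Bub1b and Ttk were not called.

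In medium the same lists had medians of -0.35 and 0.13, with 1 gene called lower in each. Bub1b and Rrm2 fell after LPS in both genotypes. Bub1b changed by -3.76 in wt and -6.27 in MK2-/- BMDM, a difference of -2.51 (unadjusted p = 0.00332, adjusted p = 0.397), and Rrm2 by -3.02 and -5.17 (unadjusted p = 0.0454, adjusted p = 0.653). The proliferation marker Mki67 was not called (0.38 ± 0.45 SE, adjusted p = 0.608). With the stromal marker mean as a covariate, 2 replication genes and no mitosis gene were called, at medians of -0.74 and -0.82. Adjusted p-values in that fit were 0.0715 for Rrm2, 0.118 for Mcm2, 0.0428 for Cdc6, 0.0644 for Bub1b and 0.0944 for Ttk. Bub1b, Ttk, Rrm2 and Mcm2 were each lost without wt replicate 1, wt replicate 3 or MK2-/- replicate 2 (Rrm2, Mcm2 and Ttk also without MK2-/- replicate 1, Mcm2 and Ttk without MK2-/- replicate 4, and Mcm2 without wt replicate 2), and Cdc6 without wt replicate 1. Without wt replicate 1, and likewise without wt replicate 3, 2 replication genes and no mitosis gene were called. Without MK2-/- replicate 3 the counts were 10 and 2. The means of LPS-treated MK2/3-/- BMDM were 8.02 for Rrm2 and 4.18 for Bub1b.

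The promoter of Mcm6, another helicase subunit that was lower in MK2-/- BMDM (values below), is shown as an example of this list. It lies at chr1:128359706-128359955 (minus strand), and capitals mark the letters TTTGGCGC or TTTCCCGC, which are E2F type motifs, on either strand.
Mcm6: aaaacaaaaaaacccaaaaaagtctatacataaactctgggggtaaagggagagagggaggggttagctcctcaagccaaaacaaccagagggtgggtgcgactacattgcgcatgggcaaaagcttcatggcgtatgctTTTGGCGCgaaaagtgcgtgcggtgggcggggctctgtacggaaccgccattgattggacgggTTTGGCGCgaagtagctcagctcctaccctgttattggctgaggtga
It held 2 matches. The letters occurred in 1.35% of the 27025 promoters searched and in 5 of the 24 DNA replication promoters in the table (Mcm5, Mcm6, Mcm7, Cdc6 and Pola1), of which Mcm6 and Cdc6 were called under LPS. They occurred in 0 of the 21 mitosis promoters.

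**Figure D3:**
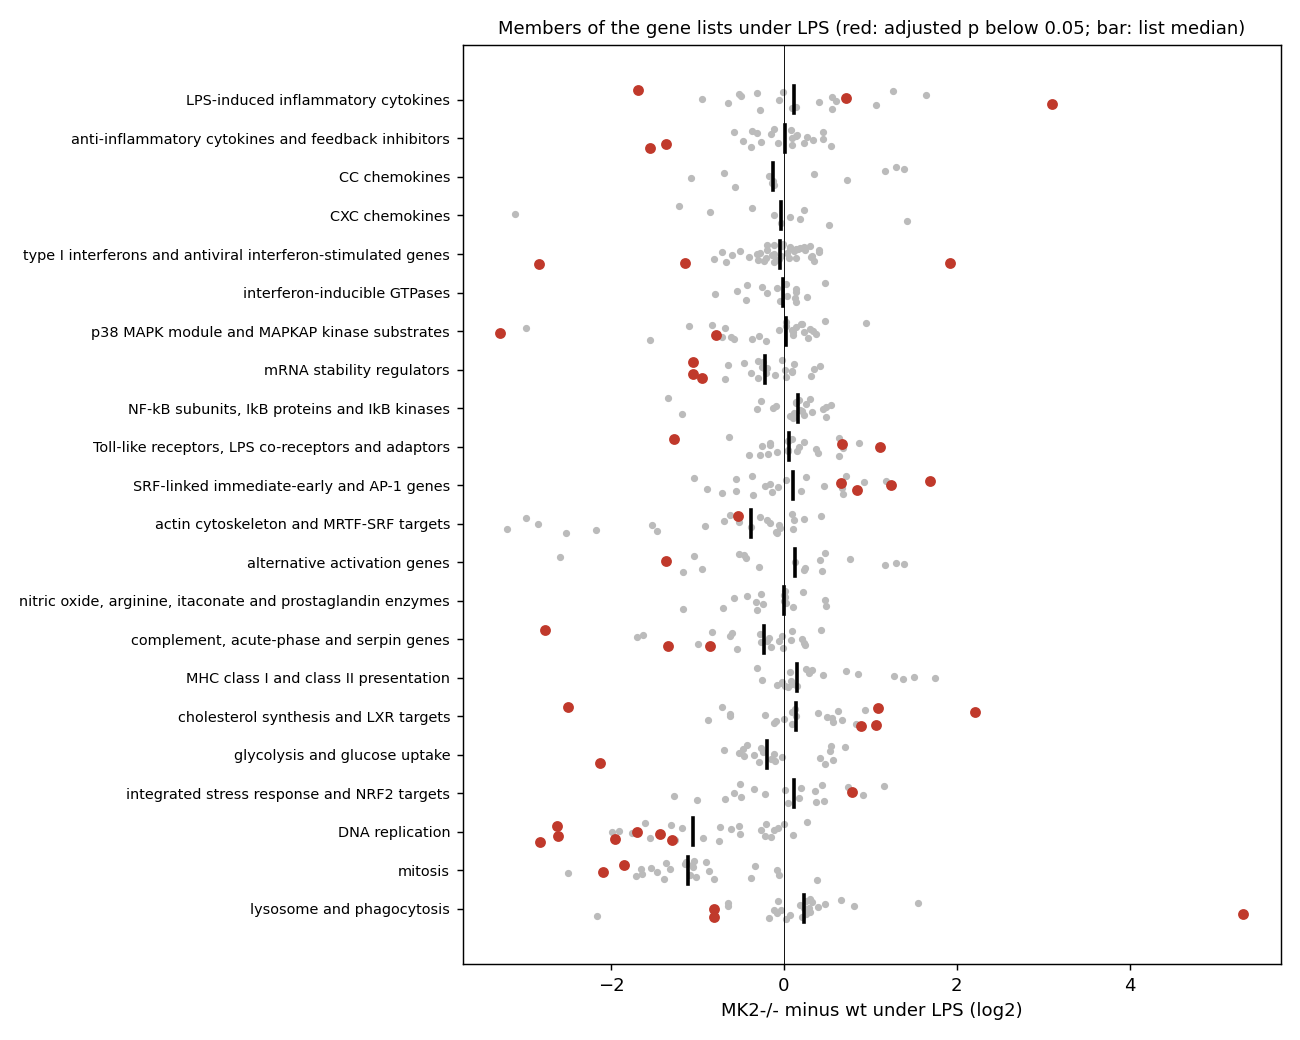
MK2-/- minus wt under LPS (log2) for every measured member of 22 gene lists, with called members in red and the list median as a bar. The DNA replication and mitosis medians lie at -1.06 and -1.11, and the chemokine lists hold no called member.

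LPS-responsive genes were defined in MK2/3-/- BMDM, which share no array with the comparison but lack MK2 as well. There 2232 genes (9.97% of those tested) were called with a fall of at least 4-fold and 1167 (5.21%) with a rise of at least 4-fold. Of the 2232 lowered genes, 552 were called lower and 5 higher in LPS-treated MK2-/- than in wt BMDM (25% called, beside 11.6% of all genes), with 1892 of the differences below 0 and a median of -0.71. In medium 37 of them were called lower and 3 higher (3.11% and 5.7% of all genes were), at a median of -0.19. Their median difference between LPS-treated MK2/3-/- and wt BMDM was -1.15, so the choice of the list favours genes that are low under LPS without MK2. With the list defined in wt BMDM, which shares the wt LPS arrays, 217 of 1310 genes were lower and 20 higher (18.1% called), at a median of -0.44. The stromal covariate left 292 lower and 3 higher in the first list, and the fits without wt replicate 1, 2 or 3 gave 260, 427 and 309 lower. Scaling to the 75th percentile gave 477 lower and 34 higher, with a median of -0.48.

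Of the 1167 LPS-induced genes 32 were called higher and 23 lower (4.71%, beside 11.6% of all genes), with a median of 0.05. In medium 19 were higher and 83 lower (5.7% and 3.11% of all genes were). The median sign under LPS turned to -0.07 with 75th percentile scaling and to -0.03 without wt replicate 1. The 1167 genes had a median difference of 0.25 between LPS-treated MK2/3-/- and wt BMDM. The choice of that list thus favours genes that are high under LPS without MK2. Of the 1012 genes induced in wt BMDM 13 were higher and 37 lower (4.94% called), at a median of -0.05. This list shares the wt LPS arrays with the comparison, so its choice favours genes that are high there. The largest called rise among genes induced in MK2/3-/- BMDM was of Chil1, a chitinase-like protein, with 4.10, 10.05 and 4.40 in wt and 10.60, 12.25, 10.06 and 9.85 in MK2-/- BMDM (4.51 ± 1.22 SE, adjusted p = 0.0257, and 0.0761 with the stromal covariate). Here wt replicate 2 lay inside the MK2-/- range, and 2 of the 3 wt arrays were well above background. Il23a (above) came next, followed by Il1bos, a transcript antisense to Il1b (NR_015474), at 6.40, 6.45 and 6.61 and 10.40, 10.26, 8.31 and 7.88 (2.72 ± 0.82 SE, adjusted p = 0.0404, and 0.114). Rgs1, a regulator of chemokine receptor signalling, was higher by 2.09 (adjusted p = 0.0409, and 0.114), and the transcript AK149560, which has no symbol here, was not well above background on any wt array and was on 2 of the MK2-/- arrays (at least 1.32-fold, adjusted p = 0.015). Chil1, Il1bos and Rgs1 were lost without wt replicate 1 or 3 or MK2-/- replicate 1 or 2, and Il1bos and Rgs1 also without wt replicate 2 (Rgs1 without MK2-/- replicate 4 too), whereas AK149560 was kept in all 7 fits and lost with normexp. Chil1 and Il1bos were lost with the 7 LPS arrays alone.

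Besides Mapkapk2 and Ifnb1 the largest called falls among these induced genes were of NM_001013828, Hoxd13 and Ggct. NM_001013828, a transcript with no symbol here, was at 5.49, 5.08 and 4.78 in wt and 3.64, 2.43, 1.99 and 2.03 in MK2-/- BMDM. It was well above background on 2 wt arrays and no MK2-/- array (at least 3.05-fold, adjusted p = 0.00382) and was kept in all 7 fits leaving out 1 array. Ggct (NM_026637), an enzyme of glutathione turnover, was at 11.90, 11.90 and 11.59 in wt and 9.52, 9.51, 9.09 and 9.48 in MK2-/- BMDM. The arrays of each group lay close together, and the difference was -2.40 ± 0.26 (SE, adjusted p = 9.57e-05). Medium gave -0.68 (adjusted p = 0.0851), and the MK2/3-/- mean under LPS was 11.90, level with wt. Hoxd13 differed by -2.59 (adjusted p = 0.0245, and 0.0659 with 75th percentile scaling), was well above background on 2 of the MK2-/- arrays, and was lost without any 1 of the wt arrays or MK2-/- replicate 1 or 4 and with normexp.

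**Figure D4:**
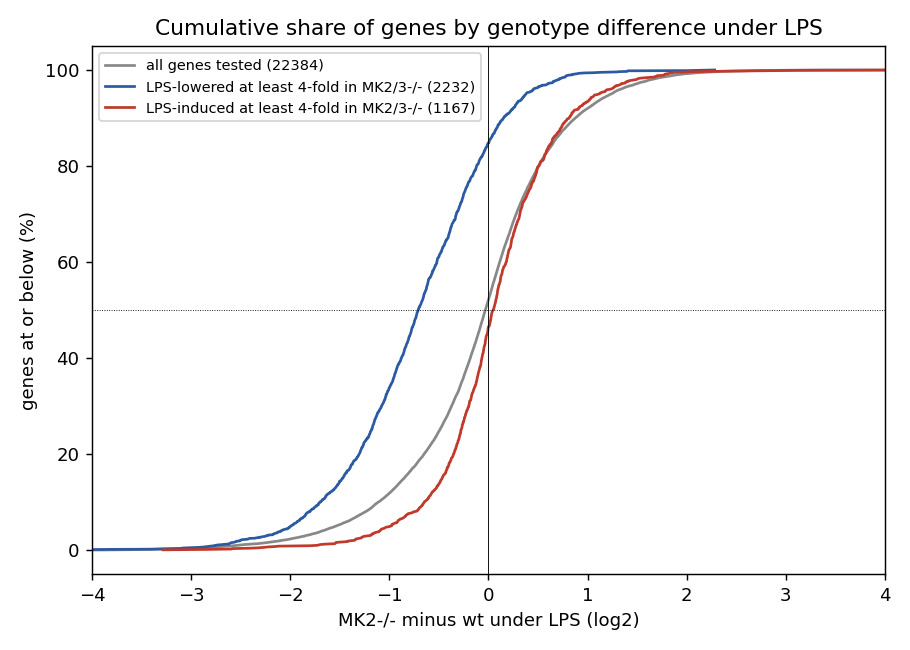
Cumulative percentage of genes at or below a given difference between MK2-/- and wt BMDM under LPS (log2), for all genes tested, for the 1167 genes induced and for the 2232 genes lowered at least 4-fold by LPS in MK2/3-/- BMDM. The curve of the lowered genes crosses 50% at -0.71, that of the induced genes at 0.05 and that of all genes at -0.03.

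The largest falls over all genes, taken among called genes with a symbol whose groups did not overlap, were led by dim transcripts. Igfbp7, a secreted IGF-binding protein of stromal and endothelial cells, was at 8.14, 5.84 and 6.40 in wt and 2.03, 2.40, 2.01 and 3.93 in MK2-/- BMDM. It was not well above background on any MK2-/- array, so the fall was at least 9.74-fold (adjusted p = 0.0194, lost without wt replicate 1). Against the lowest signal well above background on each array, Fkbp11, a secretory-pathway prolyl isomerase, was lower by at least 6.81-fold (adjusted p = 0.0283). In the same way Uchl3, a ubiquitin hydrolase, was lower by at least 6.69-fold (adjusted p = 9.77e-04) and Cyp7b1, an oxysterol hydroxylase, by at least 4.71-fold (adjusted p = 0.00821). Uchl3 was at 5.95, 6.38 and 6.42 in wt and between 2.01 and 2.26 in MK2-/- BMDM, and its difference in medium was -2.76 (adjusted p = 0.00716). Fkbp11 was called lower in medium as well, by at least 4.35-fold (adjusted p = 0.0322). Igfbp7 and Cyp7b1 did not pass there (adjusted p = 0.0858 and 0.398). The call of Fkbp11 under LPS was lost without wt replicate 1 or 3 or MK2-/- replicate 2 or 4. It was lost also with the stromal covariate (adjusted p = 0.0508) and with 75th percentile scaling (adjusted p = 0.0588).

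Thbd (NM_009378), the anticoagulant receptor thrombomodulin, was at 10.22, 7.54 and 7.55 on the wt LPS arrays and 3.83, 2.87, 3.97 and 6.55 on the MK2-/- LPS arrays. The groups did not overlap and differed by -4.13 ± 0.91 (SE, adjusted p = 0.00975), although medium-treated cells of both genotypes were at 9.55 and 9.01. The LPS responses differed by -3.60 (unadjusted p = 0.00932, adjusted p = 0.477). It was well above background on 2 of the MK2-/- arrays. MK2/3-/- BMDM were at 4.15, and the call was lost without wt replicate 1. Tnfaip6, which encodes the LPS-induced hyaluronan-binding protein TSG-6, was at 8.36, 8.54 and 8.16 and 5.18, 6.88, 3.27 and 4.73 (-3.34 ± 0.85 SE, adjusted p = 0.0196, and 0.0591 with the stromal covariate). It was lost without wt replicate 1 or 2, while its 2 other probes differed by -2.62 and -3.46 and passed in a fit over all probes. Nanos1, an RNA-binding translational repressor, differed by -3.39 ± 0.79 (SE, adjusted p = 0.0126) and was lost without wt replicate 3, and Anxa13, an annexin, by -3.42 ± 0.59 (SE, adjusted p = 0.00287) on 3 MK2-/- arrays, as its spot was marked on replicate 3. Both were well above background on all 3 wt arrays and 1 MK2-/- array. The developmental regulator Hoxc9, the scramblase Plscr2, the receptor Gpr176 and the kinase Prkca differed by -3.86, -3.89, -3.31 and -3.40 on the log2 scale. All 3 wt arrays were well above background for these, but 2, 2, 3 and 1 of the MK2-/- arrays, so the sizes depend on signals at the lower end of the scale. With 75th percentile scaling Hoxc9, Plscr2 and Prkca gave -3.06, -3.39 and -2.50 (adjusted p = 0.0605, 0.05 and 0.0578). Each was lost without wt replicate 1 or 3 or without MK2-/- replicate 1, 2 or 3 (all but Hoxc9 also without wt replicate 2), and Plscr2 and Gpr176 also with the stromal covariate (adjusted p = 0.0747 and 0.0516). A second Prkca probe gave -3.17 and did not pass in the fit over all probes (adjusted p = 0.07). Of these 12 falls, Igfbp7, Thbd, Plscr2, Hoxc9, Fkbp11, Cyp7b1, Prkca and Gpr176 were highest on wt replicate 1, the array with the highest stromal marker mean (10.51). The part of stromal cells in these falls was not tested.

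Among the 12 largest rises, of called genes chosen in the same way, Ctse (NM_007799), the aspartic protease cathepsin E, came first. It was at 2.51, 9.33 and 3.73 in wt and 11.11, 10.46, 9.57 and 10.89 in MK2-/- BMDM. Only wt replicate 2 was well above background in that group, all MK2-/- values lay above it, and the difference was 5.32 ± 1.15 (SE, adjusted p = 0.00889). Its size rests on the 2 wt arrays at the lower end of the scale, so no fold is given. In medium it was 4.43 (adjusted p = 0.0174). LPS-treated MK2/3-/- BMDM were at 10.20. The call was kept in all 7 fits leaving out 1 array and with the stromal covariate, and was lost with the 7 LPS arrays normalised and fitted alone. Il23a is described above. The other 10 rises were of dim probes, with wt means from 2.01 to 3.96 and MK2-/- means from 5.29 to 7.0. They were 5 olfactory receptor genes (Olfr452, Olfr644, Olfr663, Olfr716 and Olfr805), Tceal5, the HMG-box factor gene Tox, the protocadherin gene Pcdhac2, the Wnt inhibitor gene Nkd1 and the phosphatase regulator gene Ppp1r1c. For Tceal5, Tox, Olfr452, Olfr644, Olfr663 and Olfr716 no wt array was well above background, and for the other 4 just 1 wt array was. The rises were at least 4.33-fold for Tox and at least 4.17-fold for Tceal5. In medium Tceal5, Olfr452 and Olfr644 were called higher too, by 2.45, 2.53 and 1.97 (adjusted p = 0.00591, 0.0374 and 0.0262). The rest of these 10 genes were not called in medium.

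Tceal5, Tox, Olfr452, Olfr644 and Pcdhac2 were called in all 7 fits leaving out 1 array. Olfr716 and Nkd1 were lost without wt replicate 3 and Ppp1r1c without wt replicate 2, whereas Olfr805 and Olfr663 were lost in 5 and 6 of the 7 fits, each without wt replicate 2 or 3 or MK2-/- replicate 1, 2 or 4 (Olfr663 also without wt replicate 1). With the stromal covariate Olfr716, Olfr663, Olfr805 and Nkd1 no longer passed (adjusted p = 0.0505, 0.0744, 0.0948 and 0.0505). A second Nkd1 probe gave 0.35, and 2 other Ppp1r1c probes gave -0.21 and -1.61, none of them called. Olfr805, Nkd1 and Pcdhac2 were lost with the 7 LPS arrays alone. Pcdhac2 was at 6.39, 2.03 and 3.47 in wt and 7.05, 6.98, 6.67 and 7.30 in MK2-/- BMDM. In medium it differed by 0.12, with the wt medium arrays at 6.19, 6.22, 6.00 and 6.16. Its low wt LPS values were on replicates 2 and 3, which had the lowest median processed signals of the series (32.7 and 41.9). Olfr805 was likewise at 5.71, 2.03 and 2.01 on the wt LPS arrays and averaged 5.02 in wt medium. The part of array brightness in these rises was not tested.

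Single members of other lists passed as well. In the complement, acute-phase and serpin list 3 of 24 genes were lower (12.5%, beside 7.06%): Plau, the urokinase plasminogen activator, at 7.19, 6.41 and 7.49 in wt and 4.40, 2.66, 4.40 and 5.61 in MK2-/- BMDM (-2.76 ± 0.58 SE, adjusted p = 0.00774, 2 MK2-/- arrays well above background), and, on the log2 scale, the complement proteases C1ra and C1rb with differences of -0.85 (adjusted p = 0.0338, and 0.0881 with the stromal covariate) and -1.34 (adjusted p = 0.00569). A second C1ra probe gave -0.61 without passing, and C1ra was lost without wt replicate 1 or 2 or MK2-/- replicate 1 or 3. C1ra and C1rb are near copies, and their probes may share signal. Slc2a3, a glucose transporter, was at 6.33, 7.01 and 7.84 and 5.10, 5.31, 4.29 and 5.04. It differed by -2.13 ± 0.37 (SE, adjusted p = 0.00298) with the groups apart, and by -0.13 in medium (response difference -2.0, unadjusted p = 9.59e-04, adjusted p = 0.328). It was the 1 of 20 glycolysis and glucose uptake genes called. Lysosomal genes gave lower Npc1 (-0.81, adjusted p = 0.0132) and Ctsl (-0.81, adjusted p = 0.0446, and 0.122 with the stromal covariate, lost without wt replicate 1 or 2 or any 1 of the MK2-/- arrays) beside the higher Ctse.

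Of 25 actin cytoskeleton and MRTF-SRF targets, 20 differences lay below 0, at a median of -0.38, but Actn4 alone was called (-0.53 ± 0.17 SE, adjusted p = 0.0474). It was lost with the stromal covariate (adjusted p = 0.132) and without any 1 of the wt arrays or MK2-/- replicate 1, 2 or 4. None of the 21 antigen presentation genes and none of the 17 nitric oxide, arginine, itaconate and prostaglandin genes passed, and of 19 alternative activation genes Il4ra alone did. Of the macrophage markers, Cx3cr1 was higher (1.09 ± 0.34 SE, adjusted p = 0.0457, 0.0866 with the stromal covariate and 0.0811 with 75th percentile scaling, and lost without any 1 of the wt arrays or MK2-/- replicate 1, 2 or 4), while its 2 other probes gave 1.87 and 1.02 without passing. The erythroid Hba-a1 was higher (1.49 ± 0.27 SE, adjusted p = 0.00363). Of 12 neutrophil markers Ctsg was higher (1.37, adjusted p = 0.0254, lost without wt replicate 2 or 3 or MK2-/- replicate 1 or 4) and Prtn3 lower, at 4.45 ± 0.75 (SD, n = 3) in wt and not well above background on any MK2-/- array (at least 1.92-fold, adjusted p = 0.00328). Of 8 mast cell and basophil markers Prss34 (-1.61, adjusted p = 0.0143, and 0.158 with 75th percentile scaling, well above background on 3 wt arrays and 1 MK2-/- array, with overlapping groups and lost without wt replicate 2) and Cpa3 (at least 1.32-fold, adjusted p = 0.0398, 0.112 with the stromal covariate and 0.318 with 75th percentile scaling) were lower. Cpa3 was well above background on wt replicate 1 alone and was lost without it and without any 1 of the MK2-/- arrays. No member of the mast cell and basophil list was called lower with normexp or with 75th percentile scaling, and the latter called 2 members higher. No dendritic cell, B cell or T and NK cell marker was called under LPS.

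Mapkapk2 lies next to Il10 on chromosome 1, and its 20 tested neighbours on each side in the RefSeq gene order were examined as a group. Of these 40 genes 7 were called under LPS, 2 higher and 5 lower (17.5%, beside 11.6% of all genes), and 3 in medium. The 2 higher genes were Ctse, a gene 8 tested positions away, and Cd55b, a complement regulator, at 6.78, 7.01 and 6.88 in wt and 7.60, 7.63, 7.75 and 7.82 in MK2-/- BMDM (0.81 ± 0.19 SE, adjusted p = 0.0141; medium 0.59, adjusted p = 0.0441). A second Cd55b probe gave 0.13, and the call was lost without wt replicate 1. Lower were Il10 and Dyrk3, the direct neighbours on either side, and Ubxn4, Mcm6 and AA986860. Ubxn4, which encodes a protein of endoplasmic reticulum-associated degradation, was at 4.40, 5.18 and 5.32 in wt and at the lower end of the scale on all MK2-/- arrays (at least 2.75-fold, adjusted p = 0.00622). In medium it differed by -3.16 (adjusted p = 0.00402).

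Mcm6 was at 14.19, 13.75 and 14.55 in wt and 12.11, 11.20, 13.46 and 12.09 in MK2-/- BMDM (-1.95 ± 0.56 SE, adjusted p = 0.0316), and AA986860 at 7.45, 7.49 and 7.48 and 6.89, 5.90, 6.15 and 6.52 (-1.11 ± 0.27 SE, adjusted p = 0.0165). The kinase gene Dyrk3 differed by -1.66 ± 0.53 (SE, adjusted p = 0.0488), with -0.22 in medium, and was well above background on 2 of the MK2-/- arrays. With 75th percentile scaling Dyrk3 did not pass (adjusted p = 0.113). Mcm6 and Dyrk3 were lost without wt replicate 1 or 3 or MK2-/- replicate 1 or 2 (Mcm6 also without MK2-/- replicate 4, Dyrk3 without wt replicate 2) and with the stromal covariate (adjusted p = 0.0923 and 0.13). Ctse, Ubxn4 and Cd55b were thus called in the same direction with and without LPS.

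In medium 1974 genes (8.82%) were called, 1277 higher (5.7%) and 697 lower (3.11%). Of the 2592 genes called under LPS, 2393 (92.3%) had the same sign in medium, as 73.4% of all genes did, and 763 were called in both, 468 higher and 295 lower, with no gene called in opposite directions. These 763 genes were 29.4% of the LPS calls and 38.7% of the medium calls. The 2 comparisons share no array but share the slides. The test of the difference itself, that is of the LPS response of MK2-/- against that of wt BMDM, called 0 of 22384 genes (limma), while 1685 had an unadjusted p below 0.05. The smallest adjusted p was 0.0979, of Epop.

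Among the genes called under LPS, those with the smallest unadjusted p for the response difference included Epop, Rpusd3, Thap3 and Dcaf4. Epop, a Polycomb-associated factor, was at 10.53, 11.46 and 10.87 in wt and 12.61, 13.08, 12.33 and 13.04 in MK2-/- BMDM under LPS (1.81 ± 0.27 SE, adjusted p = 0.00117), with -0.30 in medium. LPS changed it by 1.16 in wt and 3.27 in MK2-/- BMDM (unadjusted p = 1.66e-05). Rpusd3, which acts in mitochondrial RNA modification, was lower, at 8.55, 7.25 and 7.74 and 5.01, 4.64, 5.26 and 5.25 (-2.81 ± 0.27 SE, adjusted p = 2.69e-05, response difference -2.05, adjusted p = 0.115), and a second probe gave -1.43 and passed. Thap3 and Dcaf4 were lower, with differences of -1.19 and -1.50 under LPS (adjusted p = 0.00828 and 0.00187) and gave 0.53 and 0.15 in medium. The groups did not overlap under LPS for any of the 4, and all 4 calls were kept in each fit leaving out 1 array and with the stromal covariate. Their MK2/3-/- means under LPS were 12.21, 6.72, 7.02 and 5.68.

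**Figure D5:**
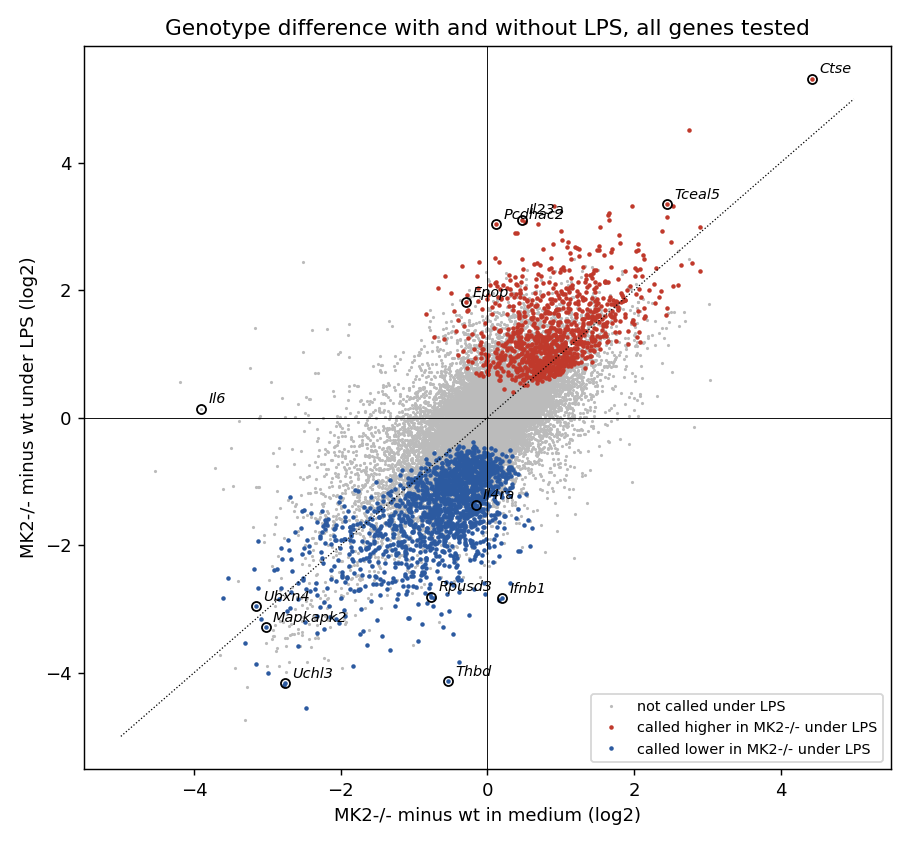
MK2-/- minus wt (log2) in medium (x axis) and under LPS (y axis) for each gene tested, with genes called under LPS in red (higher) and blue (lower) and the dotted line marking equal differences. Mapkapk2, Ubxn4 and Ctse lie near the line, Thbd and Ifnb1 lie at -0.54 and 0.20 in medium and at -4.13 and -2.84 under LPS, and Il6 lies at -3.90 in medium and 0.14 under LPS.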

How the data were processed

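Total RNA of LPS- and medium-treated wt, MK2-/- and MK2/3-/- BMDM was hybridised in 1 colour to Agilent arrays (22 arrays, 62976 spots each). The deposited scanner files hold processed signal intensity per spot, which the authors obtained with Feature Extraction 11.0.1.1 (background-subtracted). The authors also deposited a table of normalised log2 values, centred near 0, which served as an alternative. Log2 processed signals without control spots and without marked spots were quantile normalised over the 22 arrays, spots were averaged per probe, and 28103 RefSeq and GenBank probes passed a filter that asked for detection above background on 3 arrays or more. The probe with the highest mean stood for a gene, giving 22384 genes, of which 18375 had a symbol. Groups came from the array titles, and the study's methods describe the replicates as independent experiments.

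A linear model of all 22 arrays, with the 6 groups as its terms, was fitted across all genes (limma 3.58.1, R 4.3.3), and the contrasts of MK2-/- against wt under LPS, in medium and in their LPS responses were adjusted over all genes (Benjamini-Hochberg, threshold 0.05, two-sided). Fold changes are on the log2 signal scale. "At least" marks folds against the lowest signal well above background on each array. Named genes were the kinases, the 12 largest rises and falls with groups not overlapping, called members of each list (at most 6, else the 3 largest in each direction), a set of cytokines and regulators, called neighbours of Mapkapk2, and the leading genes by response difference and among LPS-induced genes. The fit was tested on simulated data. The members, gene lists and rules were chosen with earlier results of these data known. Alternatives covered scaling, background correction, filters, probe choice, tests, weights, age, pairing and each left-out array. The stromal covariate, the omission of both replicate 3 arrays of MK2-/- and the blocks within genotype were chosen after seeing the data. Normexp used the median spot signal, since the files used here hold no mean signal. The number of arrays limits the precision. Gene symbols and promoters are from RefSeq (GRCm38.p6), and some listed genes had no tested probe. Some genes that the rule names are not reported here.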

Additional observations from a re-analysis of the deposited data

Results flagged for a closer look

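In 3 of the 40 groups of 4 MK2-/- LPS arrays examined, 1 array stood far from the other 3 by Dixon's test. Chance alone gives such an array in about 1 of 20 groups. Olfr716 was at 4.98 on 1 array and at 5.54, 5.59 and 5.64 on the others. Uchl3 was at 2.26 on 1 array and at 2.01, 2.03 and 2.03 on the others. Cyp7b1 was at 2.76 on 1 array and at 2.03, 2.03 and 2.14 on the others. For Uchl3 and Cyp7b1 all 4 values lay at the lower end of the log2 scale, where the probes were not well above background.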

How the results depend on the processing

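Under LPS 2592 genes were called, and alternatives moved this count beyond 1.5 times as follows: 4753 with 75th percentile scaling, 1718 with the 7 LPS arrays normalised and fitted alone, 1698 with only the groups compared in the fit, 6417 with array weights, 5911 by the methods' t-test without adjustment and 546 after adjustment, and 1207 with the stromal covariate. Leaving out 1 array gave 1314 to 2553, with 1355, 1656 and 1314 without wt replicate 1, 2 and 3 and 1454 and 1423 without MK2-/- replicate 1 and 2. In medium the 1974 calls became 4899 with 75th percentile scaling (4117 of them higher), 5637 and 776 by the t-test without and with adjustment, 1110 at a fold of at least 2, 2993 with array weights, 1298 with age as a covariate, 769 with the stromal covariate and 779 to 1912 without 1 array (810 and 1112 without wt medium replicate 1 and 4, 1223 and 779 without MK2-/- medium replicate 1 and 2). The response difference, with 0 calls, gave 8 with only the groups compared, 96 with array weights, 4 with the array letter within genotype as a random block, 1 with the letter as a fixed block, 3 with age, 1 without both replicate 3 arrays of MK2-/-, and 0 to 4 without 1 array (4 and 3 without wt LPS replicate 1 and 2, 1 without wt medium replicate 1, 2 without MK2-/- medium replicate 2).

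The replicate numbers did not pair arrays of different genotypes: the deviations of same-numbered wt and MK2-/- LPS arrays correlated at -0.01, 0.09 and -0.04. Between the LPS and medium arrays of a genotype, same-numbered arrays correlated at 0.36, 0.26 and -0.03 in wt and at 0.30, 0.03, -0.09 and 0.15 in MK2-/- BMDM, so not all were above 0.1, although the ages in the labels match by number in MK2-/- BMDM. With the number within a genotype as a replicate block, added after seeing the data, the response difference again had 0 calls. With the replicate number as a block, 3700 genes were called under LPS (1377 higher), 2017 in medium and 0 for the response difference.

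For the 95 named genes, 1636 of the 2083 recomputed differences kept their direction and their side of the threshold, 436 kept the direction without passing, 1 passed newly and 10 changed sign. All sign changes but that of Ppp1r1c were of genes not called: Ppp1r1c gave -0.21 with the probe of highest induction in wt, Tnf 0.28 without wt replicate 3 (-0.77 to 0.28 without 1 array), Il6 -0.10 with the replicate block and -0.12 with age, Il1b -0.12 with the block, -0.16 with age and -0.091 with the stromal covariate, and Cxcl2 0.12, 0.06 and 0.23 without wt replicate 3, MK2-/- replicate 2 and MK2-/- replicate 4. The causes were not tested. Calls were lost for 20 of these genes with 75th percentile scaling, 12 with normexp, 5 with the authors' table and 37 with the 7 LPS arrays alone. With 75th percentile scaling the medians of the inflammatory cytokine (0.05), interferon (-0.22), DNA replication (-1.03) and mitosis (-0.94) lists kept their sign, and those of the anti-inflammatory (-0.24), p38 (-0.15), NF-kB (-0.01), receptor (-0.11) and stress response (-0.07) lists turned negative. Dim probes limit the comparison: 294 called genes had 1 group not well above background on any array.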
